A study of Mus musculus with 36 samples.

Results

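The change in gene expression that a high-fat diet (HFD) brought in visceral white adipose tissue (visWAT) was compared with the change it brought in the liver of the same control mice. All WT mice of the study entered, chosen by their genotype label and by nothing measured, which gave 18 of the 36 libraries and 9 of the 18 mice. By the WT label and the paper's account, they were male C57BL/6J mice with loxP-flanked *Mlkl* alleles and without the Cre transgene. They were littermates of the animals in which Adipo-Cre deletes *Mlkl* from adipocytes, so the floxed allele was present in every mouse described here. Feeding began at 16 weeks of age and lasted 16 weeks, with normal chow diet (NCD) for mice 165, 180, 182 and 183 and with HFD for mice 154, 155, 161, 162 and 164. Epididymal fat was taken as visWAT. Each mouse gave 1 library per tissue from polyadenylated RNA, with 20946091 to 30322171 reads on genes. Values below are FPKM, the fragments counted per kilobase of a gene for a given library size, and values in a series follow the mouse numbers in the order just given.

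Fat cells store triglyceride taken up from the blood or made from glucose, and release it as fatty acids. The liver makes fatty acids and cholesterol when carbohydrate is plentiful, burns fatty acids in fasting, and exports lipid in lipoproteins. In obesity, visceral fat is known to gain macrophages, among them lipid-laden cells rich in lysosomes, while the liver is known to accumulate lipid droplets.

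Several libraries stood apart before any comparison was made. In visWAT of NCD mouse 183, 27.0% of the reads lay on a list of seminal vesicle genes, against 0.0340% in mouse 182 and at most 0.0006% in the other visWAT libraries. In visWAT, *Mlkl* was at 2.29 FPKM in the library labelled WT NCD mouse 182, within the 1.96 to 2.49 FPKM of the *Mlkl* Adi-KO visWAT libraries on NCD, while the other 8 WT visWAT libraries had 3.91 to 6.28 FPKM. Liver *Mlkl* did not separate the genotypes, with 4.19 FPKM in mouse 182. As a whole, the liver library of mouse 182 also lay apart from the other NCD livers. Its chi-square per gene against them was 107 to 123, while pairs of the others had 12.1 to 20.7. In the HFD liver of mouse 155 the adipocyte genes *Adipoq*, *Plin1* and *Lep* reached 2.70, 1.18 and 0.872 FPKM, and in the HFD visWAT of mouse 164 the hepatocyte genes *Alb*, *Apoa1* and *Ttr* reached 53.2, 23.5 and 16.2 FPKM. Both tissues otherwise carried their defining markers. The summed adipocyte markers in visWAT were 16186 to 27738 FPKM on NCD and 6531 to 8618 FPKM on HFD, and the summed hepatocyte markers in liver were 64107 to 72913 and 48571 to 56138 FPKM. In a piece of tissue, fewer cells of a type and less RNA per cell cannot be told apart. Results that rest on mouse 182 or 183 are given with and without them, and mouse 182 always means the mouse that carries the label WT.

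The question was which genes answered the diet alike in both tissues, which in opposite directions, and which in one tissue only. Genes had to reach a mean of 0.5 FPKM over the 9 WT libraries of each tissue, which 11524 genes did. The tested quantity was the change from NCD to HFD in visWAT minus the change in liver, on log2(FPKM + 1), with limma and each mouse as a block, and a gene was called at a Benjamini-Hochberg adjusted p under 0.05. This difference was called in 4191 genes (36.4%), with 2265 (19.7%) higher and 1926 (16.7%) lower in visWAT. Among the same genes, 2262 (19.6%) rose and 1904 (16.5%) fell in visWAT, and 1382 (12%) rose and 1443 (12.5%) fell in liver. Over all genes that reached the minimum in a tissue, 5347 of 14161 (37.8%) were called in visWAT and 3374 of 13330 (25.3%) in liver. Whether called or not, every HFD value lay on one side of every NCD value for 32.2% of the 11524 genes in visWAT and for 24.2% in liver. For the per-mouse difference visWAT minus liver, 31.7% had no such overlap between diets. These shares are the background against which the members of each group below can be read.

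A gene moved together when it was called in both tissues with the same sign, as 463 genes (4.02%) were, 260 up and 203 down. It moved apart when it was called in both with opposite signs and the difference itself was called, as 598 genes (5.19%) were. Of these, 262 (2.27%) rose in visWAT and fell in liver, and 336 (2.92%) did the reverse. A change in visWAT only, with the difference called and no call in liver, was found for 2138 genes (18.6%), and a change in liver only for 933 (8.1%). Of the 1061 genes called in both tissues, 56.4% moved in opposite directions. Of the 463 that moved together, the difference between tissues was also called for 111, with the larger change in visWAT for 84 and in liver for 27. Another 411 genes had a called difference without a call in either tissue, 967 were called in visWAT and 831 in liver with no called difference, and 5183 were called nowhere.

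How the libraries are scaled matters for these counts. Relative to the reads on genes, the library size behind the deposited FPKM was 1.01 to 1.40 in visWAT and 0.745 to 0.812 in liver. On the TPM scale, where every library sums to the same total, the median change over all visWAT genes moved from -0.0061 to 0.42 on the log2 scale, and the share of visWAT calls that were rises moved from 58.1% to 94.4%. The deposited FPKM summed to 564718 in visWAT of NCD mouse 183, of which 311053 lay on seminal vesicle genes. The other visWAT libraries summed to 227793 to 309820, the highest in mouse 182. Equal totals thus lower the other genes of mouse 183 most. What part this had in the TPM results here and below was not tested. Rises made up 45.9% of the visWAT calls with edgeR on whole reads. The share of called differences that were higher in visWAT moved from 54.0% to 89.5% on the TPM scale. No gene whose difference was called had the opposite sign under any alternative in which it was called too. Changes in visWAT that are small on the log2 scale are therefore relative to the deposited scaling, and the counts of visWAT calls on the TPM scale are given beside each group in which they moved by at least 2 genes and by over 1.5 times.

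**Figure D1:**
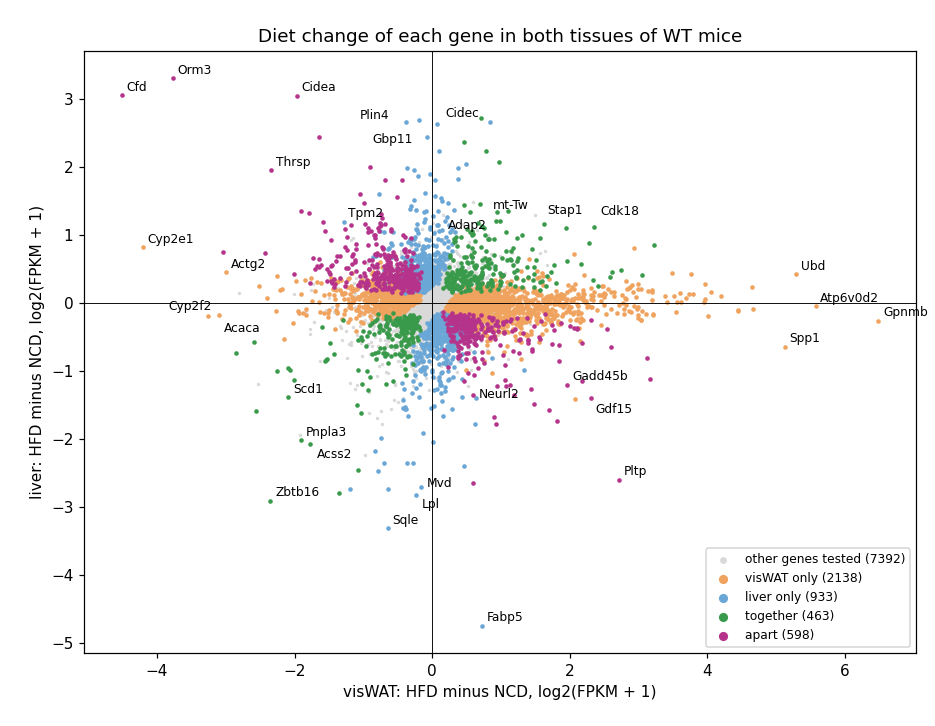
Change from NCD to HFD in visWAT (x axis) against the change in liver (y axis), both as differences of log2(FPKM + 1), for the 11524 genes tested in both tissues, with 1 point per gene coloured by class and the 32 genes named from the classes labelled. Genes that moved apart lie in the upper left and lower right, such as *Cfd* at -4.51 in visWAT and 3.05 in liver and *Pltp* at 2.72 and -2.60.

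The 8 genes named among those that moved apart encode secreted proteins, lipid-handling proteins and others. *Pltp*, which encodes phospholipid transfer protein, rose in visWAT and fell in liver, and *Cfd* and *Orm3*, which encode the secreted proteins adipsin and orosomucoid, did the reverse. The genes had been picked for the size of both changes and for diets that did not overlap in either tissue, so their sizes and their separation are a description. All other genes named from the classes were likewise picked for size and for no overlap in each tissue where they were called.

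*Pltp* (chromosome 2, 164681438 to 164699631, mm39) was at 34, 29.5, 66.5 and 27.5 FPKM on NCD and 209, 276, 291, 240.0 and 235 FPKM on HFD in visWAT. In liver it was at 140.2, 137, 56.2 and 141 FPKM on NCD and 18.3, 14.8, 13.4, 19.7 and 22.9 FPKM on HFD. Every HFD visWAT exceeded every NCD visWAT and every HFD liver lay below every NCD liver, and NCD mouse 182 was the highest of its group in visWAT and the lowest in liver. The visWAT change was 2.72 ± 0.24 (SE, limma adjusted p = 2.63e-05) on the log2 scale and the liver change -2.60 ± 0.28 (SE, limma adjusted p = 0.000298), a difference of 5.32 ± 0.50 (SE, limma adjusted p = 5.86e-05). Its neighbour *Neurl2* (chromosome 2, 164672652 to 164675376, same strand), which encodes a protein of the neuralized family, moved alike, with 1.44 in visWAT and -1.26 in liver (limma adjusted p = 3.66e-05 for the difference). *Neurl2* was at 2.05, 2.25, 3.17 and 2.06 FPKM in NCD visWAT and 6.53, 9.11, 9.05, 7.26 and 8.87 FPKM in HFD visWAT, with no overlap. Liver values were 7.09, 6.32, 4.95 and 6.62 FPKM on NCD and 2.10, 1.53, 1.51, 2.60 and 2.42 FPKM on HFD. Whether reads of one of these neighbours were counted on the other was not tested.

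*Gdf15* (chromosome 8, 71082043 to 71085106), a hormone of the TGF-beta family that cells release under stress, was at 0.243, 0.104, 0.379 and 0.353 FPKM on NCD and 3.22, 7.91, 6.16, 5.30 and 4.74 FPKM on HFD in visWAT. In liver its values were 11.1, 12.3, 31.6 and 18 FPKM on NCD and 10.4, 3.89, 5.90, 6.84 and 3.72 FPKM on HFD. On NCD every liver was far above every visWAT, on HFD the tissues overlapped, and NCD mouse 182 had the highest liver value. The changes were 2.31 in visWAT and -1.39 in liver, a difference of 3.7 ± 0.43 (SE, limma adjusted p = 0.000193). *Gadd45b* (chromosome 10, 80765907 to 80768038), a stress-inducible regulator of kinase signalling, was at 3.54, 2.22, 2.25 and 2.75 FPKM on NCD and 8.59, 16.0, 15.9, 13.9 and 13.6 FPKM on HFD in visWAT. In liver it stood at 2.62, 4.17, 6.16 and 3.05 FPKM on NCD and 1.62, 1.51, 0.836, 0.789 and 0.894 FPKM on HFD, again without overlap. Its difference between tissues was 3.17 ± 0.34 (SE, limma adjusted p = 0.000116), and 2.92 without mouse 182.

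*Cfd* (chromosome 10, 79726687 to 79728489) encodes complement factor D, an abundant secreted product of fat cells. It was at 12032, 14086, 3486 and 8360.4 FPKM on NCD and 438, 204, 381, 589.9 and 331 FPKM on HFD in visWAT, a fall of every HFD library below every NCD library. In liver the values ran the other way, at 3.74, 0.695, 0.105 and 3.91 FPKM on NCD and 57.5, 25.7, 27.2, 14.2 and 5.57 FPKM on HFD. The difference, -7.56 ± 0.67 (SE, limma adjusted p = 4.29e-05), followed a visWAT change of -4.51 and a liver change of 3.05. Even so, liver *Cfd* on HFD stayed below visWAT *Cfd* on HFD in every mouse. In the HFD liver of mouse 155, which carried *Adipoq* at 2.70 FPKM, *Cfd* was at 25.7 FPKM. What part attached fat had in the liver values was not tested.

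*Orm3* (chromosome 4, 63274399 to 63277748), an orosomucoid of the acute phase whose near-identical copies can share reads, was at 20.9, 36.5, 43.1 and 123 FPKM on NCD and 1.58, 2.65, 3.34, 4.37 and 0.991 FPKM on HFD in visWAT. In liver it went from 0.938, 1.24, 0.312 and 1.02 FPKM on NCD to 13.4, 13.9, 22.5, 19.4 and 18.4 FPKM on HFD. The diets did not overlap in either tissue, and the order of the tissues was turned around. The difference was -7.08 ± 0.47 (SE, limma adjusted p = 1.03e-05), with -3.77 in visWAT and 3.30 in liver.

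*Cidea* and *Thrsp* serve lipid storage and synthesis. *Cidea*, whose product joins lipid droplets, was at 5.70, 14.9, 72.5 and 4.33 FPKM on NCD and 3.61, 1.75, 2.20, 3.20 and 2.80 FPKM on HFD in visWAT, with NCD mouse 182 far above the others. The liver libraries were at 3.31, 0.0479, 0.909 and 10.9 FPKM on NCD and 30.9, 17.2, 17.8, 29.6 and 37.0 FPKM on HFD. The visWAT change of -1.97 ± 0.67 (SE, limma adjusted p = 0.0432) was -1.18 without mouse 182 (limma adjusted p = 0.0222), and the liver change of 3.05 ± 0.62 (SE, limma adjusted p = 0.0068) was 2.80. *Thrsp* (chromosome 7, 97062145 to 97066937), the lipogenic regulator Spot 14, was at 362, 698, 2157 and 451 FPKM on NCD and 122, 99.6, 136, 193 and 160.1 FPKM on HFD in visWAT. Liver *Thrsp* was at 229.7, 215, 60.6 and 421 FPKM on NCD and 673, 761, 677, 628 and 961 FPKM on HFD, and mouse 182 was at both extremes of the NCD group. Its difference of -4.28 ± 0.87 (SE, limma adjusted p = 0.00454) was -3.21 without that mouse (limma adjusted p = 0.000254).

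**Figure D2:**
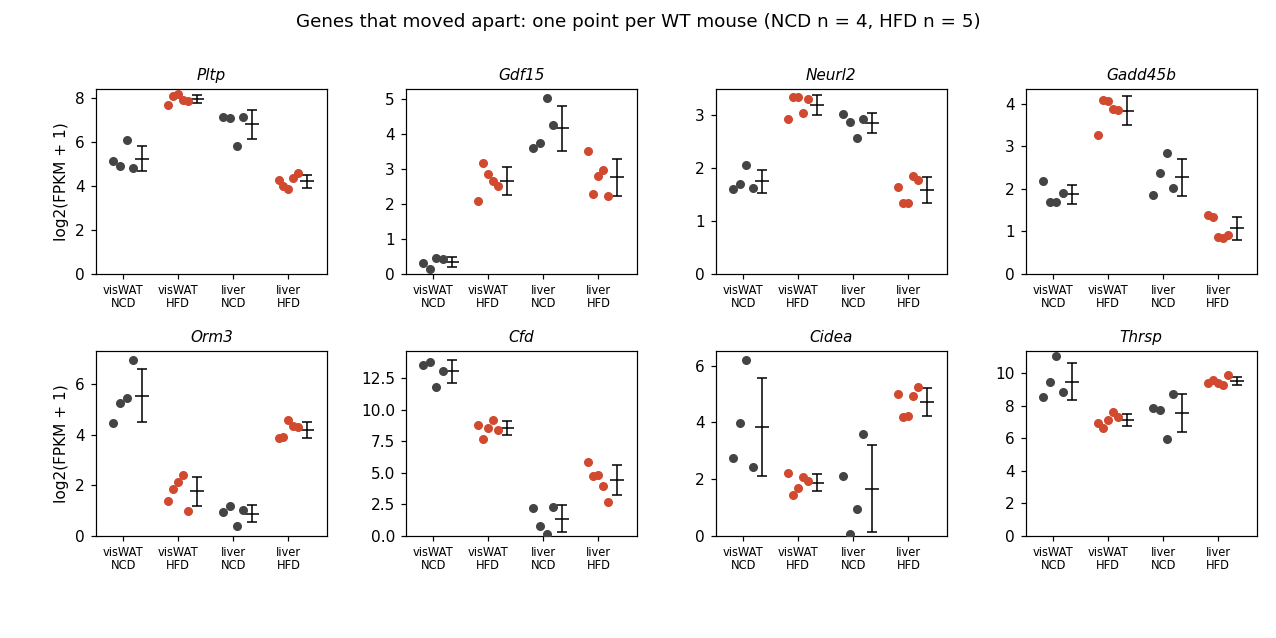
log2(FPKM + 1) per mouse (y axis) in visWAT and liver on NCD (grey, 4 mice) and HFD (red, 5 mice), for the 8 genes named among those that moved apart, with 1 point per library and the mean ± SD to its right. In each panel the HFD points lie on one side of the NCD points in visWAT and on the other side in liver, as for *Orm3*, which goes from 20.9 to 123 FPKM down to 0.991 to 4.37 FPKM in visWAT and from 0.312 to 1.24 FPKM up to 13.4 to 22.5 FPKM in liver.

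Genes of fatty acid synthesis were lower on HFD in visWAT and split in liver. Of 19 genes of de novo lipogenesis, 13 fell and 0 rose in visWAT (median -1.78), while 9 fell and 4 rose in liver (median -0.47). The difference between tissues was called for 6 as lower and for 2 as higher in visWAT. Without mouse 182, 13 fell in visWAT, and on the TPM scale 9.

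*Acaca* (chromosome 11, 84020498 to 84292477), acetyl-CoA carboxylase, which makes malonyl-CoA for fatty acid synthesis, changed in visWAT only. It was at 37.3, 53.9, 184 and 21.8 FPKM on NCD and 5.85, 4.36, 4.65, 5.73 and 6.67 FPKM on HFD in visWAT and at 13.9, 10.6, 12 and 13.8 FPKM on NCD and 12.1, 10.8, 12.3, 9.37 and 10.4 FPKM on HFD in liver. The visWAT groups were far apart and the liver groups overlapped, with a visWAT change of -3.09 ± 0.50 (SE, limma adjusted p = 0.00111) and a liver change of -0.18 ± 0.10 (SE, limma adjusted p = 0.233). *Elovl6*, a fatty acid elongase, and *Aacs*, which activates acetoacetate for lipid synthesis, moved apart. *Elovl6* ranged over 7.42 to 286 FPKM on NCD and 1.87 to 2.97 FPKM on HFD in visWAT and over 29.2 to 42.9 FPKM on NCD and 39.4 to 81.8 FPKM on HFD in liver, where the diets overlapped. Its difference was -3.78 ± 0.94 (SE, limma adjusted p = 0.012), and -2.64 without mouse 182, the NCD visWAT library at 286 FPKM (limma adjusted p = 0.0018). *Aacs* ranged over 52.4 to 207 FPKM on NCD and 19.0 to 29.9 FPKM on HFD in visWAT and 20.2 to 42.5 FPKM on NCD and 60.3 to 105 FPKM on HFD in liver, with no overlap in either, and its difference was -3.26 ± 0.49 (SE, limma adjusted p = 0.000838).

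Of the 4 genes named among the shared falls, 3 serve lipid metabolism. *Pnpla3* (chromosome 15, 84052038 to 84071437), a lipid droplet protein of the patatin family, was at 229, 334, 437 and 236 FPKM on NCD and 86.8, 67.9, 66.9, 82.8 and 92.2 FPKM on HFD in visWAT. In liver it was at 6.36, 2.9, 5.21 and 14.0 FPKM on NCD and 0.686, 2.34, 0.264, 0.162 and 1.13 FPKM on HFD. Both groups were separate in both tissues, with changes of -1.91 ± 0.20 (SE, limma adjusted p = 8.44e-05) and -2.02 ± 0.41 (SE, limma adjusted p = 0.00704) and a difference of 0.11 (95% interval -1.05 to 1.26). *Scd1* (chromosome 19, 44382894 to 44396318), stearoyl-CoA desaturase, was at 6047, 8395, 19897 and 3692 FPKM on NCD and 2284, 1126, 1518, 2444 and 2160.4 FPKM on HFD in visWAT. Liver *Scd1* was at 7348, 5723, 8039.9 and 9025 FPKM on NCD and 2565, 3206, 2625, 2272 and 3788 FPKM on HFD. The changes were -2.09 ± 0.46 (SE, limma adjusted p = 0.00615) and -1.39 ± 0.18 (SE, limma adjusted p = 0.000679). *Acss2* (chromosome 2, 155359868 to 155427644), the cytosolic acetyl-CoA synthetase, was at 14.4, 30.7, 149.8 and 14.8 FPKM on NCD and 7.81, 9.47, 6.57, 9.28 and 10.2 FPKM on HFD in visWAT, where mouse 182 was the highest of its group. Liver libraries had 69.0, 54.7, 87.8 and 61.0 FPKM on NCD and 14.2, 14.9, 11.7, 12.8 and 24.3 FPKM on HFD. The visWAT change of -1.78 ± 0.60 (SE, limma adjusted p = 0.0418) was -1.05 without mouse 182 (limma adjusted p = 0.00938) and was not called on the TPM scale, while the liver change was -2.08 ± 0.21 (SE, limma adjusted p = 0.000186).

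Among lipid storage genes, falls outnumbered rises in visWAT, for triglyceride genes not on the TPM scale, and rises outnumbered falls in liver. Of 10 mature adipocyte markers expressed in both tissues, 6 fell in visWAT and 7 rose in liver, and the difference was lower in visWAT for 8. Of these markers 3 fell in visWAT on the TPM scale. Of 21 genes of triglyceride assembly and the lipid droplet, 9 fell and 3 rose in visWAT (median -0.39), 8 rose and 1 fell in liver (median 0.36), and the difference was called lower for 10 and higher for 3. On the TPM scale 4 of the 21 rose and 2 fell in visWAT (median -0.032), and the difference was lower for 6. The PPARgamma target list, which shares members with both, had 5 falls (3 on the TPM scale) and 1 rise in visWAT and 6 rises and 2 falls in liver among 14. The summed adipocyte markers rose in liver too, from 622 to 1369 FPKM on NCD to 2077 to 2396 FPKM on HFD, and what part fat attached to the liver pieces had in these values was not tested.

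*Plin4* (chromosome 17, 56407591 to 56416803), a coat protein of lipid droplets, changed in liver only, from 4.02, 4.07, 2.01 and 3.57 FPKM on NCD to 27.2, 19.2, 27.9, 37.7 and 22.9 FPKM on HFD, a change of 2.66 ± 0.21 (SE, limma adjusted p = 5.93e-05). In visWAT it was at 441, 459, 223 and 289.6 FPKM on NCD and 309, 184, 239, 291 and 297 FPKM on HFD, with overlapping groups. *Cidec* (chromosome 6, 113401595 to 113412721), a partner of *Cidea* in droplet fusion, was at 14.6, 5.35, 10.2 and 21.8 FPKM on NCD and 96.0, 59.1, 63.8, 90.6 and 81.3 FPKM on HFD in liver, where the change was 2.63 ± 0.33 (SE, limma adjusted p = 0.000587). Its visWAT values were 1465, 1678, 1446 and 1224 FPKM on NCD and 1559, 1473, 1447, 1597 and 1494 FPKM on HFD, a change of 0.067 (95% interval -0.23 to 0.37). So both remained far higher in visWAT than in liver on either diet. *Mogat1*, a monoacylglycerol acyltransferase, changed in visWAT only, with 12.2 to 21.8 FPKM on NCD and 1.91 to 3.60 FPKM on HFD there and 1.86 to 4.11 FPKM on NCD and 3.54 to 6.14 FPKM on HFD in liver, a difference of -2.66 ± 0.26 (SE, limma adjusted p = 8.05e-05). *Gpam*, which starts triglyceride assembly, fell in both tissues, with a change of -1.52 ± 0.26 (SE, limma adjusted p = 0.00157) in visWAT and of -0.82 ± 0.21 (SE, limma adjusted p = 0.0192) in liver.

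Genes of fatty acid handling outside these lists differed between tissues as well. *Fabp5* (chromosome 3, 10077608 to 10081667), a fatty acid binding protein, fell in liver from 77.0, 64.9, 59.8 and 76.8 FPKM on NCD to 2.18, 1.42, 1.39, 1.35 and 1.79 FPKM on HFD, a change of -4.75 ± 0.11 (SE, limma adjusted p = 7.44e-08). Its visWAT values were 25.6, 40.4, 217 and 23.5 FPKM on NCD and 59.3, 101, 90.0, 80.9 and 77.3 FPKM on HFD. Without mouse 182, at 217 FPKM, the visWAT change went from 0.73 to 1.44 (limma adjusted p = 0.000886) and the gene moved apart. *Lpl* (chromosome 8, 69333143 to 69360100), lipoprotein lipase, which releases fatty acids from circulating triglyceride, fell in liver from 8.80, 9.61, 39.3 and 7.84 FPKM to 1.07, 1.61, 0.760, 0.718 and 0.808 FPKM, with -2.82 ± 0.41 (SE, limma adjusted p = 0.00127). In visWAT it stood at 564, 549, 593 and 467 FPKM on NCD and 508, 447, 438, 445 and 469.6 FPKM on HFD, a change of -0.23 ± 0.11 (SE, limma adjusted p = 0.136). Without mouse 183 the visWAT change was -0.30 (limma adjusted p = 0.0425), which put *Lpl* among the genes that fell together.

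Cholesterol synthesis genes fell across the pathway in liver, and few of them changed in visWAT. Of 23 genes of the pathway, 21 fell and 0 rose in liver (median -1.43), against 12.5% of all genes that fell there. In visWAT 1 fell and 1 rose (median -0.11), and the difference was called higher in visWAT for 19 and lower for 0. Without mouse 182, 9 rose in visWAT, and on the TPM scale 2 did, while 21 of 23 fell in liver on that scale.

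*Hmgcs1*, which makes HMG-CoA for the pathway, moved apart. Its liver values were 107, 97.8, 178 and 97.7 FPKM on NCD and 15.7, 18.3, 15.4, 15.6 and 25.1 FPKM on HFD. In visWAT it was at 19.3, 24.1, 33.5 and 18.7 FPKM on NCD and 33.2, 40.3, 32.9, 36.4 and 36.7 FPKM on HFD, a smaller change, with mouse 182 inside the HFD range. The liver change was -2.65 ± 0.20 (SE, limma adjusted p = 5.63e-05), the visWAT change 0.60 ± 0.16 (SE, limma adjusted p = 0.0163) and the difference 3.25 ± 0.15 (SE, limma adjusted p = 2.6e-06). *Sqle* (chromosome 15, 59186926 to 59203041), squalene epoxidase, was at 22.8, 22.1, 29.4 and 28.5 FPKM on NCD and 1.78, 1.72, 0.866, 1.71 and 2.52 FPKM on HFD in liver and at 2.14, 2.72, 12.5 and 3.58 FPKM on NCD and 1.91, 2.57, 2.27, 2.15 and 2.81 FPKM on HFD in visWAT. Its liver groups were separate by a wide margin and its visWAT groups overlapped, with a liver change of -3.31 ± 0.17 (SE, limma adjusted p = 7.93e-06). *Mvd* (chromosome 8, 123160340 to 123170161), mevalonate diphosphate decarboxylase, was at 19.9, 22.7, 28.3 and 32.0 FPKM on NCD and 2.92, 3.07, 2.31, 2.36 and 5.11 FPKM on HFD in liver, a change of -2.70 ± 0.20 (SE, limma adjusted p = 4.34e-05). Its visWAT values ran over 3.54 to 47.9 FPKM on NCD and 7.87 to 11.2 FPKM on HFD, with the top NCD value in mouse 182. *Fdft1*, squalene synthase, was the member that fell in both tissues, with a change of -1.02 ± 0.16 (SE, limma adjusted p = 0.000893) in visWAT and of -1.19 ± 0.13 (SE, limma adjusted p = 0.000343) in liver.

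The promoters of these genes shared a short motif. CCAAT, read on either strand (so also as ATTGG), was counted when the 250 bases before any RefSeq start of a gene held it. It occurred so in 16 of the 17 cholesterol synthesis genes with a sequence in RefSeq (94.1%), against 37.5% of the 27025 genes with such a sequence and 40.7% of the 8421 of them tested in both tissues. The match is a description of the letters, not of a factor. Shown are *Hmgcs1* (chr13:119690101-119690350 on the plus strand), *Mvd* (chr8:122443423-122443672 on the minus strand) and *Idi1* (chr13:8885356-8885605 on the plus strand), members with a match from the start, the end and just past the mevalonate steps, chosen after their values were seen. *Idi1* encodes isopentenyl diphosphate isomerase and had -0.64 in visWAT and -2.73 in liver. Coordinates are of GRCm38.p6, sequences run 5′ to 3′ and the motif is in capitals.
Hmgcs1: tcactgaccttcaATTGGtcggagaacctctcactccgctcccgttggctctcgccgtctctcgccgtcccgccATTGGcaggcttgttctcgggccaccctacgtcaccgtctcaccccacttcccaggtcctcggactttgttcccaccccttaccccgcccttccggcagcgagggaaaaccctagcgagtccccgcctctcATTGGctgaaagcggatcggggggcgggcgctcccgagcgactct
Mvd: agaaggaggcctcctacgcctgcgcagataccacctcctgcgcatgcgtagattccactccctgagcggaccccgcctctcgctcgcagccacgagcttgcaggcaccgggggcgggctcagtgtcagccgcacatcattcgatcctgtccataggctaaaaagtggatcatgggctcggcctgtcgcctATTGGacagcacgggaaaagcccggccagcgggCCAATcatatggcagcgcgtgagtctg
Idi1: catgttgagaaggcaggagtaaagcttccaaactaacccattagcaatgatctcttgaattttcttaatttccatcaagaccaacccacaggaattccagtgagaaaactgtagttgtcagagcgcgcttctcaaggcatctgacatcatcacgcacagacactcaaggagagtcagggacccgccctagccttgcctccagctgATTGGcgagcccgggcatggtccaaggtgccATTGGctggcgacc

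Fat is known to break down the branched-chain amino acids valine, leucine and isoleucine. Genes of this breakdown were lower in visWAT on HFD, fewer of them on the TPM scale. Of 23 genes, 21 fell in visWAT (median -0.97), 7 rose and 0 fell in liver (median 0.14), and the difference was lower in visWAT for 19. On the TPM scale, 5 fell in visWAT (median -0.53) and 9 differed between tissues. *Aldh6a1*, methylmalonate semialdehyde dehydrogenase of the valine branch, ranged over 57.6 to 82.6 FPKM on NCD and 19.3 to 30.3 FPKM on HFD in visWAT and 82.8 to 102 FPKM on NCD and 115 to 128 FPKM on HFD in liver, without overlap in either, and its difference was -1.79 ± 0.17 (SE, limma adjusted p = 5.86e-05). *Hsd17b10*, a dehydrogenase of the isoleucine branch, had -0.93 in visWAT and 0.85 in liver (limma adjusted p = 0.000279 for the difference). *Acadsb*, an acyl-CoA dehydrogenase of the same branch, fell in visWAT only, with a change of -1.57 ± 0.17 (SE, limma adjusted p = 9.55e-05).

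Respiratory chain genes were lower in visWAT, a result that depended on the scaling. Of 50 nuclear subunit genes, 29 fell in visWAT (median -0.55) and 5 in liver (median -0.099), none rose in either, and the difference was lower in visWAT for 20 and higher for 1. On the TPM scale 0 fell in visWAT (median -0.072) and 0 had a lower difference, and 1 fell in liver. Leaving out single mice gave 18 to 40 falls in visWAT (the fewest without mouse 180), 1 to 9 in liver (the most without mouse 182 and the fewest without mouse 180 or 183) and 13 to 27 lower differences (the fewest without mouse 162). *Sdha*, *Ndufs1* and *Uqcrc2*, subunits of complexes II, I and III, had differences of -0.92, -0.88 and -0.87, each with its highest NCD visWAT value in mouse 182, and without that mouse -0.61, -0.62 and -0.59. *Ndufs7* and *Ndufb8* of complex I fell in both tissues, with changes of -0.67 and -0.80 in visWAT and of -0.24 and -0.23 in liver, and their liver changes were not called without mouse 183 (limma adjusted p = 0.0921 and 0.067). Among the 13 protein genes of the mitochondrial genome, 9 fell in visWAT (3 on the TPM scale) and 0 in liver, and 8 differed between tissues (3 on the TPM scale and 5 without mouse 180). *mt-Atp6* of the ATP synthase went from 30.3 to 258 FPKM to 15.6 to 24.7 FPKM in visWAT, a change of -1.98 ± 0.49 (SE, limma adjusted p = 0.0114), and ranged over 75.3 to 133 FPKM on NCD and 70.7 to 218 FPKM on HFD in liver. *mt-Co3* and *mt-Nd4l* had differences of -2.03 ± 0.44 (SE, limma adjusted p = 0.00626) and -1.73 ± 0.44 (SE, limma adjusted p = 0.0137).

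Cytosolic ribosomal protein genes fell in liver throughout the list. All 32 of 32 fell there (median -0.39), 6 rose and 0 fell in visWAT (median 0.36), and the difference was higher in visWAT for 30. The visWAT rises numbered 3 without mouse 155, 161 or 162. Without mouse 183, 31 rose in visWAT, as did 31 on the TPM scale, where 32 fell in liver. *Rps16*, of the small subunit, went from 166 to 194 FPKM on NCD to 121 to 131 FPKM on HFD in liver and ranged over 95.2 to 173 FPKM on NCD and 172 to 242 FPKM on HFD in visWAT, where mouse 183 overlapped the HFD group. Its difference was 1.10 ± 0.20 (SE, limma adjusted p = 0.0029). *Rpl37* and *Rpl23* of the large subunit differed by 1.01 and 1.01. Ribosomal protein genes have many near-identical pseudogenes, so that single values are uncertain.

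**Figure D3:**
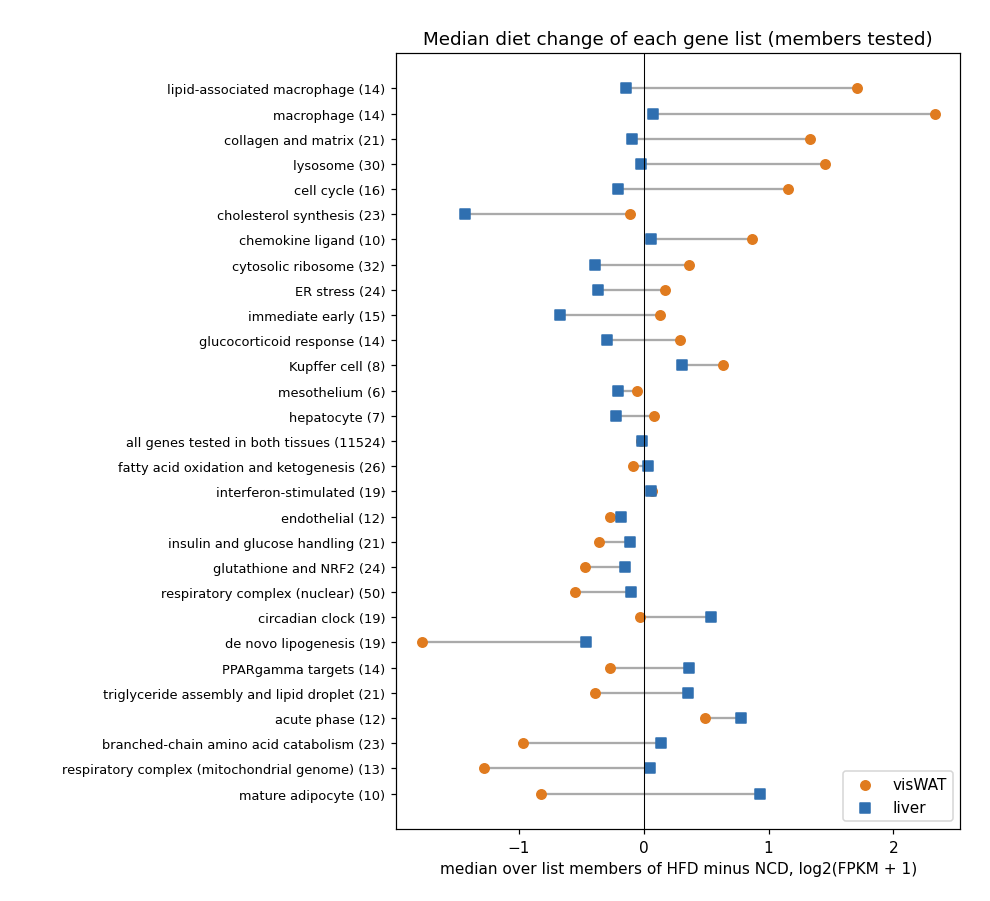
Median over the tested members of each gene list (1 line each, number tested in parentheses) of the change from NCD to HFD in log2(FPKM + 1), for visWAT (circles) and liver (squares). Macrophage, lysosome, matrix and cell cycle lists lie to the right in visWAT and near 0 in liver, cholesterol synthesis lies at -1.43 in liver and -0.11 in visWAT, and branched-chain amino acid catabolism at -0.97 in visWAT and 0.14 in liver.

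Macrophage genes rose in visWAT and mostly not in liver. Of 14 macrophage markers, 12 rose in visWAT (median 2.33), 1 in liver (median 0.073), and the difference was higher in visWAT for 12. For the lipid-associated macrophage list the numbers were 11 of 14 up in visWAT, 3 down in liver (and 3 up without mouse 182) and 12 with a higher difference. Of 8 genes of Kupffer cells, the liver's own macrophages, 4 rose in visWAT and 3 in liver. The summed macrophage markers were at 232 to 337 FPKM in NCD visWAT and 1896 to 2689 FPKM in HFD visWAT. In liver the sums were 56.4 to 161 and 67.2 to 92.6 FPKM, and without NCD mouse 182, the highest, 4 macrophage markers rose in liver.

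*Gpnmb* (chromosome 6, 49013480 to 49047863), a transmembrane glycoprotein of lipid-laden macrophages, was at 3.04, 1.22, 1.21 and 2.61 FPKM on NCD and 179.7, 338, 321, 233 and 267 FPKM on HFD in visWAT. In liver it was at 0.0186, 0.0246, 4.37 and 0.0606 FPKM on NCD and 0.429, 0.393, 0.212, 0.231 and 0.277 FPKM on HFD. Liver levels were low in every library but that of NCD mouse 182, and without this mouse the gene missed the expression minimum in liver. The visWAT change was 6.49 ± 0.24 (SE, limma adjusted p = 2.48e-07). *Spp1* (chromosome 5, 104582984 to 104588916), osteopontin, was at 0.0853, 0.136, 0.224 and 0.139 FPKM on NCD and 29.0, 50.8, 51.7, 29.1 and 41.3 FPKM on HFD in visWAT, a change of 5.13 ± 0.18 (SE, limma adjusted p = 2.26e-07). Liver values were 33.1, 18, 147 and 26.3 FPKM on NCD and 25.3, 39.0, 24.8, 20.8 and 18.3 FPKM on HFD, with the highest again in mouse 182. The liver change of -0.64 was -0.015 without that mouse, and the difference between tissues 5.18 in place of 5.77.

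*Atp6v0d2* (chromosome 4, 19876841 to 19922605), a subunit of the proton pump that acidifies lysosomes, was at 0.321, 0.106, 0.299 and 0.0721 FPKM on NCD and 40.0, 64.8, 68.7, 55.9 and 56.3 FPKM on HFD in visWAT, a change of 5.58 ± 0.15 (SE, limma adjusted p = 9.48e-08). Liver values were 0.312, 0.393, 5.17 and 0.353 FPKM on NCD and 0.679, 0.923, 0.940, 1.06 and 0.965 FPKM on HFD. With mouse 182 the liver groups overlapped, and without it the liver change was 0.50 (limma adjusted p = 0.00328), so that the gene moved together. The same held for *Ubd* (chromosome 17, 37504783 to 37506986), the ubiquitin-like protein FAT10, at 4.65, 4.21, 4.12 and 1.33 FPKM on NCD and 128, 192, 183, 189 and 165 FPKM on HFD in visWAT. In liver its values were 0.844, 0.688, 8.81 and 0.303 FPKM on NCD and 2.28, 2.12, 1.87, 3.84 and 2.05 FPKM on HFD, and the liver change went from 0.42 to 1.08 (limma adjusted p = 0.00288) without mouse 182. *Cd68* and *Tyrobp*, a macrophage scavenger receptor and a signalling adaptor, had differences of 4.42 ± 0.28 (SE, limma adjusted p = 8.92e-06) and 3.90 ± 0.27 (SE, limma adjusted p = 1.3e-05), and without mouse 182 their liver changes of 0.59 and 0.32 were called too. *Itgax*, the integrin CD11c, went from 0.354 to 1.20 FPKM to 35.4 to 48.9 FPKM in visWAT, and its liver mean missed the minimum without mouse 182.

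Lysosome genes rose in visWAT as well. Of 30 members, 28 rose in visWAT (median 1.45), 3 rose and 3 fell in liver (median -0.021, 6 rises without mouse 182), and the difference was higher in visWAT for 24. *Ctss* and *Ctsk*, the cathepsins S and K, changed in visWAT only. *Ctss* went from 17.2 to 23.2 FPKM to 342 to 556 FPKM there and ranged over 12.1 to 39.5 FPKM on NCD and 14.8 to 21.4 FPKM on HFD in liver, with the top value in mouse 182, a difference of 4.57 ± 0.34 (SE, limma adjusted p = 1.62e-05). *Ctsk* differed by 4.56 ± 0.31 (SE, limma adjusted p = 1.06e-05). *Lamp1*, a lysosomal membrane protein, rose in both tissues, by 0.87 ± 0.12 (SE, limma adjusted p = 0.000408) in visWAT and by 0.28 ± 0.056 (SE, limma adjusted p = 0.00654) in liver. What part the larger macrophage signal had in the lysosome values was not tested.

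CACGTG, a palindrome that reads the same on both strands, was counted when the 250 bases before any RefSeq start of a gene held it. It occurred so in 10 of the 22 lysosome genes with a RefSeq sequence (45.5%), against 6.86% of the 27025 genes with one and 10.4% of the 8421 tested in both tissues. Shown are *Lgmn* (chr12:102439093-102439342 on the minus strand), *Gla* (chrX:134601006-134601255 on the minus strand) and *Ctsl* (chr13:64370521-64370770 on the minus strand). These members were chosen like those above, by a match and the largest difference between tissues, so the choice followed their values. They encode legumain, alpha-galactosidase A and cathepsin L. Their visWAT changes were 3.21, 2.32 and 1.73, and their liver changes -0.17, -0.25 and -0.29. Build, direction and capitals are as above. Where several starts of a gene in either list held the motif, the first by chromosome coordinate was shown, whatever the strand. Whether the starts shown for either list are the ones used in visWAT or liver was not tested.
Lgmn: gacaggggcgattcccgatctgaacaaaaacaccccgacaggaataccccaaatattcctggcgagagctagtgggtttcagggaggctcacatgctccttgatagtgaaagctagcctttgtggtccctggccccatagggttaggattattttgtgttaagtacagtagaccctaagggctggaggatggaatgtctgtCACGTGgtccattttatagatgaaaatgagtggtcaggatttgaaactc
Gla: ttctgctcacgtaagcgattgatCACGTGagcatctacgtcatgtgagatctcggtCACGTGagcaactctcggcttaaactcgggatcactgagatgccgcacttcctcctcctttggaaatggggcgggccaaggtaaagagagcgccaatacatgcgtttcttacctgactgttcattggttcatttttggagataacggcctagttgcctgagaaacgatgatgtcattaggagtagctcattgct
Ctsl: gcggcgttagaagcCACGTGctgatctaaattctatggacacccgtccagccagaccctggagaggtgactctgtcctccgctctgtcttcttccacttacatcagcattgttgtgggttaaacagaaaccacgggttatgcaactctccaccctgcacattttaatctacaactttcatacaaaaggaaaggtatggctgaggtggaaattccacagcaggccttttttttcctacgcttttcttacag

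Chemokine ligands, which draw leukocytes into tissue, rose in visWAT for 7 of 10 and fell for 0, with 1 up and 1 down in liver. The member down in liver was *Ccl9*, which moved apart, from 8.01 to 12.1 FPKM to 79.2 to 117 FPKM in visWAT and from 24.6 to 29.9 FPKM to 11.1 to 14.1 FPKM in liver, a difference of 4.29 ± 0.19 (SE, limma adjusted p = 2.6e-06). *Ccl2*, the monocyte chemoattractant, changed in visWAT only, by 2.50 ± 0.28 (SE, limma adjusted p = 0.000108). The member up in liver was *Ccl6*, at 2.62 in visWAT and 0.46 in liver. Only 2 of 16 T and B lymphocyte genes reached the minimum in both tissues. *Ighm*, the IgM heavy chain, moved apart, with 17.6 to 172 FPKM on NCD and 213 to 343 FPKM on HFD in visWAT and 4.37 to 51.4 FPKM on NCD and 3.76 to 6.23 FPKM on HFD in liver, and its difference was 3.55 ± 0.37 (SE, limma adjusted p = 0.000109). Without mouse 183 its liver change was not called (limma adjusted p = 0.0968). *Nkg7*, of cytotoxic cells, differed by 0.82 ± 0.28 (SE, limma adjusted p = 0.0449) with no call in either tissue, and this difference was not called without mouse 183 (limma adjusted p = 0.0589), while without mouse 182 the gene missed the minimum in liver. Interferon-stimulated genes showed 3 rises of 19 in visWAT (6 on the TPM scale) and 2 rises and 1 fall in liver. Over all genes 19.6% rose in visWAT, and 12% rose and 12.5% fell in liver. On the deposited scale none of the interferon counts exceeded these shares.

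Matrix and cell cycle genes rose in visWAT. Of 21 collagen and matrix genes, 20 rose there (median 1.33), 1 rose and 1 fell in liver (median -0.093), and the difference was higher in visWAT for 18. Without mouse 182, 5 rose in liver. *Lum*, the collagen-binding lumican, differed by 2.78 ± 0.35 (SE, limma adjusted p = 0.000322), *Col6a2* by 2.07 and *Col6a3* by 2.01, each with its highest liver value in NCD mouse 182. *Fn1*, fibronectin, rose in both tissues, by 1.33 ± 0.23 (SE, limma adjusted p = 0.00179) and by 0.34 ± 0.10 (SE, limma adjusted p = 0.037). Of 16 cell cycle genes, 15 rose in visWAT, 1 rose and 1 fell in liver, and 15 had a higher difference. Of these genes 12 reached the minimum in both tissues without mouse 182. *Cdkn1a*, the cell cycle inhibitor p21, moved apart, with 1.19 in visWAT, -1.36 in liver and a difference of 2.55 ± 0.39 (SE, limma adjusted p = 0.000947). *Ccnb2* and *Cdc20*, which act in mitosis, rose in visWAT, and in liver they were at or below 0.662 FPKM except in mouse 182, at 5.20 and 10.9 FPKM, without which they missed the minimum there. *Rrm2*, which makes nucleotides for DNA, rose in both tissues, by 1.13 and 0.65.

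Clock genes were called in both directions in both tissues. Of 19 clock genes, 10 rose and 5 fell in liver (median 0.54), 1 rose and 4 fell in visWAT (median -0.032), and the difference was lower in visWAT for 9 and higher for 3. With TPM 4 rose and 1 fell in visWAT (median 0.42) and 6 differences were lower, and 3 rose there without mouse 182. The time of day at which tissue was taken is not given in the sources used here. Diet and time of collection therefore cannot be told apart, for these genes or for any others here that vary over the day. *Usp2*, a clock-controlled protease, moved apart, with changes of -0.44 and 1.80, and *Per3*, a period gene, rose in liver only, by 1.81 ± 0.17 (SE, limma adjusted p = 0.000162). *Nr1d1*, the repressor REV-ERB alpha, fell in both, with a change of -1.07 ± 0.13 (SE, limma adjusted p = 0.000169) in visWAT and -2.45 ± 0.13 (SE, limma adjusted p = 7.94e-06) in liver. *Arntl*, the activator BMAL1, fell in both as well, with changes of -0.36 and -0.79.

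*Zbtb16* (chromosome 9, 48565597 to 48747522), a transcription factor induced by glucocorticoids, had the largest shared fall among the genes eligible for naming. It was at 19.2, 20.3, 13.9 and 10.9 FPKM on NCD and 3.41, 1.22, 2.04, 2.65 and 2.37 FPKM on HFD in visWAT. In liver it was at 18.7, 22.9, 16.4 and 21.9 FPKM on NCD and 3.03, 1.17, 1.64, 2.10 and 1.30 FPKM on HFD. The tissues had much the same level on each diet, and the changes were -2.35 ± 0.23 (SE, limma adjusted p = 4.25e-05) and -2.91 ± 0.18 (SE, limma adjusted p = 2.02e-05). Other glucocorticoid response genes went both ways: of 14, 3 rose and 2 fell in visWAT (5 and 1 on the TPM scale), and 3 rose and 4 fell in liver. The visWAT counts on the deposited scale lie near the shares over all genes, 19.6% up and 16.5% down. In liver 12% of all genes rose and 12.5% fell. *Fkbp5*, a chaperone of the glucocorticoid receptor, moved apart, with -0.93 in visWAT and 1.04 in liver (limma adjusted p = 8.95e-05 for the difference). *Mt1*, a metallothionein, rose in both, by 0.71 ± 0.21 (SE, limma adjusted p = 0.024) in visWAT (0.47 without mouse 182) and by 2.72 ± 0.66 (SE, limma adjusted p = 0.016) in liver, with NCD mouse 182 at 82.5 FPKM in liver against 8.01 to 11.2 FPKM in the other NCD livers.

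Immediate early genes, which respond within minutes to stimulation and handling, fell in liver for 8 of 15 and rose for 0, while 4 rose and 3 fell in visWAT (4 and 0 on the TPM scale) and the difference was higher in visWAT for 10. *Atf3*, a stress-induced transcription factor, rose in visWAT only, from 1.92 to 5.35 FPKM to 41.5 to 78.7 FPKM, with 0.673 to 6.61 FPKM on NCD and 0.806 to 1.79 FPKM on HFD in liver and a difference of 4.21 ± 0.54 (SE, limma adjusted p = 0.000354). *Fos* differed by 3.50 ± 0.37 (SE, limma adjusted p = 0.000114) and *Junb* by 2.71 ± 0.18 (SE, limma adjusted p = 1.01e-05), both components of AP-1. *Nr4a1* and *Klf2* fell in both tissues, with changes of -0.46 and -0.39 in visWAT and of -0.78 and -0.96 in liver. Without mouse 183 the liver change of *Nr4a1* (limma adjusted p = 0.0527) and the visWAT change of *Klf2* (0.0638) were not called.

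Genes of the endoplasmic reticulum stress response fell in liver for 12 of 24 and rose for 2, and 4 rose and 1 fell in visWAT. The visWAT count rested on mouse 183, whose library held the seminal vesicle reads: without it 15 rose and 0 fell there. With that mouse included, 10 rose and 1 fell on the TPM scale. *Sdf2l1*, a chaperone of the reticulum, was at 6.65, 5.13, 5.80 and 62.3 FPKM on NCD and 26.4, 42.9, 28.7, 27.3 and 23.4 FPKM on HFD in visWAT, where mouse 183 exceeded every HFD library. Its visWAT change went from 1.34 to 2.14 (limma adjusted p = 3.54e-05) without mouse 183, against a liver change of -0.98 ± 0.23 (SE, limma adjusted p = 0.0132). *Chac1*, which degrades glutathione, rose in liver by 1.86 ± 0.27 (SE, limma adjusted p = 0.00119), and its visWAT change of -0.20 was 0.54 (limma adjusted p = 0.0339) without mouse 183.

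Glutathione and NRF2 genes fell for 10 of 24 in visWAT (2 on the TPM scale) and for 8 in liver, with 2 rises in each tissue (5 in visWAT without mouse 182). *Gsta3*, a glutathione transferase, fell in visWAT only, from 29.3 to 53.4 FPKM to 4.97 to 8.09 FPKM, and its liver change of 0.25 was called without mouse 182 (0.16, limma adjusted p = 0.0409). *Gsta4*, which clears products of lipid peroxidation, fell in both tissues, with a change of -2.85 ± 0.35 (SE, limma adjusted p = 0.000211) and -0.74 ± 0.14 (SE, limma adjusted p = 0.00576), and more so in visWAT (limma adjusted p = 0.000613 for the difference). *Gclc*, which starts glutathione synthesis, fell, with a change of -0.83 in visWAT and -0.73 in liver. *Hmox1*, heme oxygenase, rose in visWAT, by 2.13 ± 0.28 (SE, limma adjusted p = 0.00031), with a liver change of 0.069 that was 0.35 (limma adjusted p = 0.00912) without mouse 182.

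Of 21 genes of insulin action and glucose handling, 9 fell and 3 rose in visWAT, and 4 fell and 4 rose in liver. In visWAT 2 fell and 4 rose on the TPM scale, and 5 rose without mouse 182. *Slc2a4*, the insulin-regulated glucose transporter GLUT4, was at 61.1, 69.0, 161 and 42.8 FPKM on NCD and 20.9, 14.4, 20.9, 24.6 and 22.8 FPKM on HFD in visWAT. In liver, where it is low, it was at 0.365, 0.107, 0.0555 and 0.454 FPKM on NCD and 1.54, 2.98, 2.29, 1.32 and 2.56 FPKM on HFD. The diets were separate in both tissues and the difference was -3.11 ± 0.45 (SE, limma adjusted p = 0.000677). *Pik3r1*, a regulatory subunit of PI3 kinase, moved apart too, with -1.12 and 0.63. *Pck1*, of gluconeogenesis and glyceroneogenesis, and *Irs1*, an insulin receptor substrate, fell in both tissues. The changes of *Pck1* were -2.01 ± 0.34 (SE, limma adjusted p = 0.00156) and -1.14 ± 0.19 (SE, limma adjusted p = 0.00303), and those of *Irs1* were -0.66 and -0.44. *Trib3*, an inhibitor of AKT, fell in liver, with a change of -1.56 ± 0.13 (SE, limma adjusted p = 6.75e-05), and without mouse 183 its visWAT change of 0.42 was called as well (limma adjusted p = 0.0133).

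Acute phase genes rose in liver for 8 of 12 and fell for 0, while 3 rose and 3 fell in visWAT. With TPM 5 rose and 1 fell in visWAT, and the lower differences went from 7 to 3. Next to *Orm3* stood *Lcn2*, lipocalin 2, with 2.67 ± 0.38 (SE, limma adjusted p = 0.00123) in liver and 0.84 ± 0.33 (SE, limma adjusted p = 0.0734) in visWAT. Without mouse 183 its visWAT rise of 1.15 was called (limma adjusted p = 0.0073) and its difference was not (limma adjusted p = 0.0619), so that *Lcn2* moved together. *Steap4*, a metalloreductase, moved apart, with changes of -0.60 and 1.06. *Saa3* and *Hp*, serum amyloid A3 and haptoglobin, rose in both tissues, by 2.29 and 1.23 in visWAT and by 0.87 and 0.62 in liver. Without mouse 182 the visWAT rise of *Hp* was 0.71.

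Fatty acid oxidation and ketogenesis genes were called in both directions, with 5 rises and 4 falls of 26 in visWAT and 4 rises and 3 falls in liver. These counts lie near the shares over all genes, 19.6% up and 16.5% down in visWAT and 12% up and 12.5% down in liver. The TPM scale gave 5 rises and 0 falls in visWAT, with 9 differences higher and 1 lower. Without mouse 182, 8 rose in visWAT, and without mouse 183, 9 fell. *Cpt1a*, which carries fatty acids into mitochondria, rose in both tissues. *Cpt1a* was at 6.26 to 8.48 FPKM on NCD and 18.2 to 19.6 FPKM on HFD in visWAT and 72.8 to 82.9 FPKM on NCD and 119.6 to 157 FPKM on HFD in liver, with changes of 1.17 and 0.81. *Ehhadh*, of peroxisomal oxidation, fell in liver, with a change of -1.98 ± 0.23 (SE, limma adjusted p = 0.000424), and without mouse 182 or 183 its visWAT fall was called too. *Pdk4*, which spares glucose, fell in liver, with a change of -1.39 ± 0.21 (SE, limma adjusted p = 0.00174), and without mouse 182 its visWAT rise of 1.08 was called (limma adjusted p = 0.00509). *Fgf21*, a fasting hormone of the liver, differed by 1.48 ± 0.41 (SE, limma adjusted p = 0.0195) and by 0.96 without mouse 182. The NCD liver of mouse 182 had 71.9 FPKM and all other livers 6.28 to 12.9 FPKM, and the liver change of -0.98 was not called (limma adjusted p = 0.197). Its change was called in visWAT only (0.50, limma adjusted p = 0.0169). Values there were low and overlapped, 0.103 to 0.660 FPKM on NCD and 0.604 to 1.07 FPKM on HFD.

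**Figure D4:**
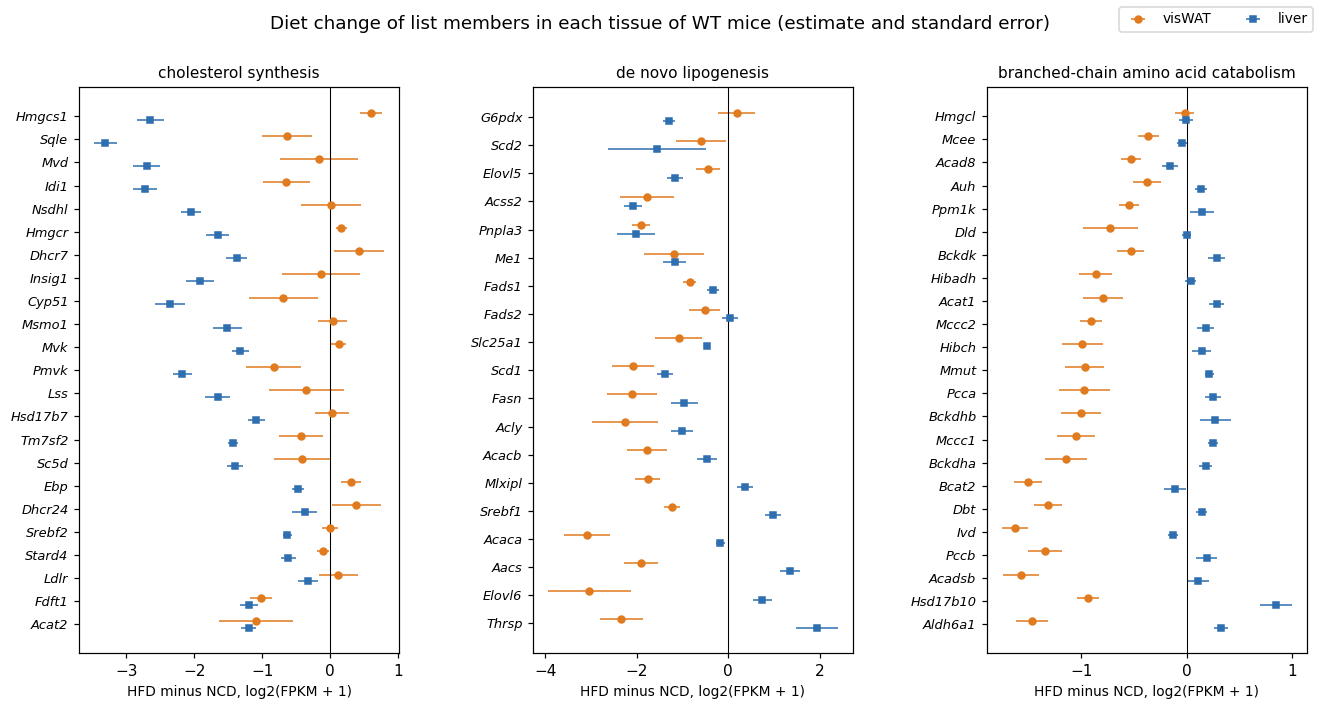
Change from NCD to HFD in log2(FPKM + 1) for each tested member of 3 gene lists, with the estimate and its standard error in visWAT (circles) and liver (squares). Cholesterol synthesis genes lie left of 0 in liver and branched-chain amino acid genes mostly left of 0 in visWAT, and among genes of lipogenesis *Elovl6* and *Aacs* lie left of 0 in visWAT and right of it in liver.

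Among the remaining genes that changed in visWAT only were enzymes better known from liver. *Cyp2e1* (chromosome 7, 140343652 to 140354900), a cytochrome P450 that oxidises ethanol and small lipids, was at 882, 1956, 954 and 840.3 FPKM on NCD and 76.7, 22.4, 53.6, 125.7 and 55.2 FPKM on HFD in visWAT. Liver *Cyp2e1* was at 4187, 4088, 1366 and 4196 FPKM on NCD and 5685, 4802, 5948, 6829.6 and 4727 FPKM on HFD. The groups were separate in both tissues, and the difference was -5.02 ± 0.48 (SE, limma adjusted p = 6.22e-05). The liver change of 0.82 ± 0.33 (SE, limma adjusted p = 0.099) became 0.42 (limma adjusted p = 0.0312) without mouse 182, so that the gene moved apart. *Cyp2f2* (chromosome 7, 26819334 to 26833085), another P450, was at 6.87, 21.8, 7.97 and 10.7 FPKM on NCD and 0.146, 0.0829, 0.245, 0.0820 and 0.615 FPKM on HFD in visWAT. In liver it ranged over 423 to 587 FPKM on NCD and 372 to 485 FPKM on HFD, overlapping between diets, and the difference was -3.08 ± 0.25 (SE, limma adjusted p = 2.4e-05).

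*Actg2* (chromosome 6, 83489887 to 83513247), the gamma actin of smooth muscle, was at 4.13, 5.94, 6.12 and 144 FPKM on NCD and 0.677, 0.194, 1.02, 1.95 and 0.307 FPKM on HFD in visWAT, with mouse 183 far above the rest. In liver it was at 0, 0.549, 0.0310 and 0.326 FPKM on NCD and 0.108, 6.82, 0.0656, 0 and 0.316 FPKM on HFD. Its difference, -3.45 ± 1.09 (SE, limma adjusted p = 0.0328), was -2.36 without mouse 183 (limma adjusted p = 0.0503). *Tpm2* (chromosome 4, 43514711 to 43523765), a tropomyosin of muscle, was likewise high in visWAT of mouse 183, at 11.6, 12.1, 11 and 114 FPKM on NCD and 7.98, 7.72, 8.42, 10.7 and 5.78 FPKM on HFD. It rose in liver, from 2.89, 3.47, 1.91 and 3.78 FPKM to 6.75, 12, 6.85, 6.96 and 8.39 FPKM, by 1.19 ± 0.19 (SE, limma adjusted p = 0.00201). Without mouse 183 its visWAT change of -0.48 was called (limma adjusted p = 0.0297) and the gene moved apart.

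*Gbp11* (chromosome 5, 105470908 to 105494338), an interferon-inducible guanylate binding protein of a family with similar copies, changed in liver only. The liver libraries were at 0.382, 0.694, 0.341 and 0.419 FPKM on NCD and 3.63, 9.33, 6.53, 8.85 and 7.75 FPKM on HFD, a change of 2.45 ± 0.22 (SE, limma adjusted p = 0.000111). In visWAT the diets overlapped, at 0.783, 1.60, 1.12 and 1.53 FPKM on NCD and 1.59, 0.786, 1.21, 0.730 and 1.49 FPKM on HFD, with a change of -0.067 (95% interval -0.43 to 0.29).

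**Figure D5:**
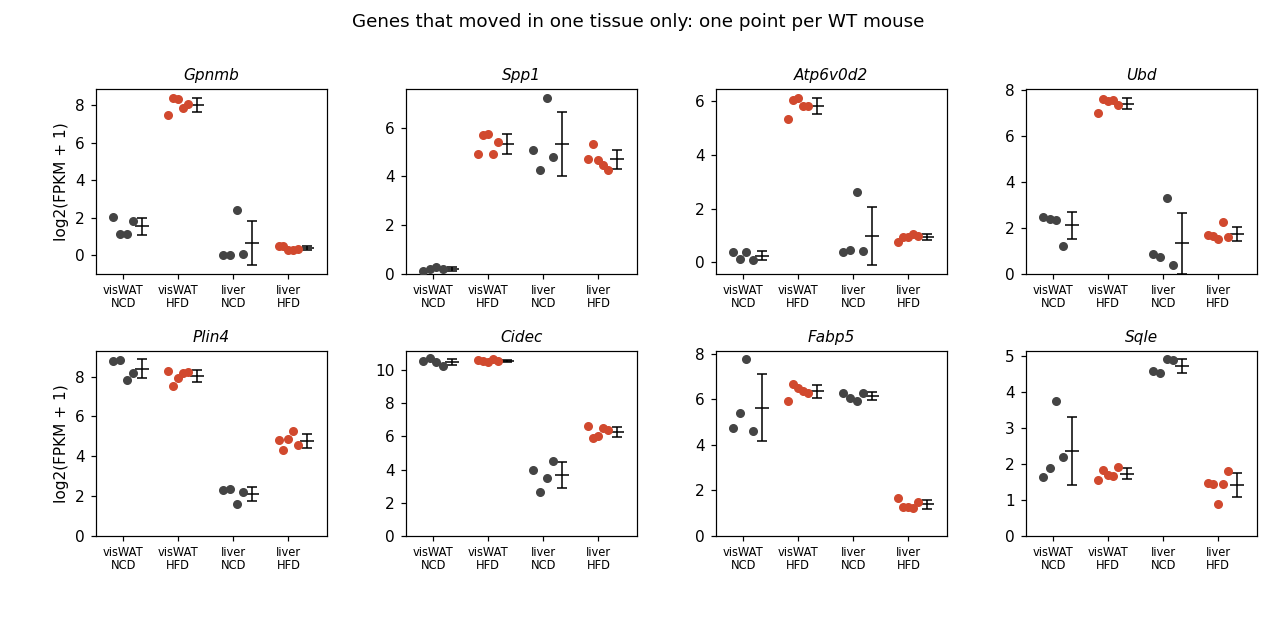
log2(FPKM + 1) per mouse (y axis) in visWAT and liver on NCD (grey, 4 mice) and HFD (red, 5 mice), for 8 of the genes that changed in one tissue only, with 1 point per library and the mean ± SD to its right. *Gpnmb* goes from at most 3.04 FPKM to at least 180 FPKM in visWAT, with the single high NCD liver in mouse 182, and *Sqle* drops from at least 22.1 FPKM to at most 2.52 FPKM in liver while its visWAT values overlap.

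The 4 genes named among the shared rises were of several kinds. *Stap1* (chromosome 5, 86219605 to 86253984), a signalling adaptor of immune cells, was at 0.213, 0.129, 0.113 and 0.142 FPKM on NCD and 2.19, 4.40, 4.35, 3.07 and 3.47 FPKM on HFD in visWAT and at 0.340, 0.155, 0.707 and 0.236 FPKM on NCD and 1.30, 1.80, 1.82, 2.34 and 2.36 FPKM on HFD in liver. Both tissues separated the diets, and the rise was larger in visWAT, 1.94 ± 0.15 (SE, limma adjusted p = 9.74e-06) against 1.11 ± 0.15 (SE, limma adjusted p = 0.00079), a difference of 0.83 ± 0.18 (SE, limma adjusted p = 0.00621). *Adap2* (chromosome 11, 80044931 to 80069784), a GTPase-activating protein of membrane traffic, rose alike. It was at 16.6, 9.13, 6.93 and 7.63 FPKM on NCD and 23.0, 17.0, 21.2, 22.7 and 22.4 FPKM on HFD in visWAT. Liver libraries had 13.9, 14.7, 12.2 and 14.1 FPKM on NCD and 27.8, 27.3, 30.1, 30.4 and 31.0 FPKM on HFD, and its changes were 1.07 and 1.04, a difference of 0.033 (95% interval -0.42 to 0.49).

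*Cdk18* (chromosome 1, 132039975 to 132067422), a kinase related to the cyclin-dependent kinases, was at 0.826, 0.870, 0.775 and 7.72 FPKM on NCD and 8.31, 16.4, 16.5, 11.9 and 13.0 FPKM on HFD in visWAT. There mouse 183 stood near the HFD values and the other NCD mice below 1 FPKM. In liver it was at 9.55, 9.76, 7.56 and 10.6 FPKM on NCD and 21.8, 20.3, 21.6, 21.4 and 21.2 FPKM on HFD, and its changes were 2.36 ± 0.46 (SE, limma adjusted p = 0.00333) and 1.11 ± 0.081 (SE, limma adjusted p = 4.34e-05). Largest among the shared rises eligible for naming was that of *mt-Tw* (mitochondrial genome, 4950 to 5016), the mitochondrial tRNA for tryptophan, a gene of 67 bases in libraries made from polyadenylated RNA. It was at 5.87, 2.88, 3.86 and 2.92 FPKM on NCD and 15.7, 11, 14.4, 10.7 and 18.1 FPKM on HFD in visWAT. Liver *mt-Tw* was at 23.5, 29.5, 31.0 and 22.7 FPKM on NCD and 55.9, 52.5, 71.7, 80.5 and 46.5 FPKM on HFD, with rises of 1.63 and 1.16. These rested on few reads, 14 in the NCD visWAT of mouse 165 for example.

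The lists kept as markers of other cells and tissues gave the following counts, beside 16.5% of all genes that fell in visWAT and 12.5% in liver. Of 12 endothelial genes, 3 fell in visWAT and none was called in liver. This count was 0 on the TPM scale, and 0 to 5 when single mice were left out (0 without mouse 155, 165 or 182 and the most without mouse 183). Of 5 erythroid genes, 4 fell in visWAT (1 on the TPM scale), and 1 rose and 1 fell in liver. Hepatocyte genes expressed in both tissues fell for 2 of 7 in visWAT and for 2 in liver (4 without mouse 182). Of 6 mesothelial genes, 1 fell in liver and none was called in visWAT. The one epididymis gene tested was not called, and no seminal vesicle gene reached the minimum in both tissues.

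*Mlkl* itself, floxed and by the WT label not deleted in these mice, was at 5.11, 4.63, 2.29 and 3.91 FPKM in NCD visWAT and 4.58, 5.19, 4.88, 5.50 and 6.28 FPKM in HFD visWAT. The 2.29 FPKM of mouse 182 lay within the range of the Adi-KO visWAT libraries on NCD, as given above. Its liver values were 2.44, 2.18, 4.19 and 2.89 FPKM on NCD and 2.67, 2.62, 2.71, 2.99 and 2.63 FPKM on HFD. The change was 0.37 ± 0.17 (SE, limma adjusted p = 0.12) in visWAT and -0.051 ± 0.13 (SE, limma adjusted p = 0.812) in liver, and neither it nor the difference of 0.42 (95% interval -0.20 to 1.04) was called. Without mouse 182 the visWAT change was 0.18 (limma adjusted p = 0.2).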

How the data were processed

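RNA-seq of visWAT and liver of 9 WT mice (4 NCD, 5 HFD) was analysed, 18 libraries grouped by the sample labels. Libraries were made by the authors from polyadenylated RNA, their reads were cleaned with fastp and aligned to mm39 with HISAT2, and reads per gene were obtained with featureCounts (1.5.0-p3, per the submitters' processing notes). The strand setting, the annotation release and the treatment of reads that match several genes are not given in the sources used here. The authors deposited FPKM for 56748 genes with the gene length and coordinates (mm39), and counts for the genes of their own comparison tables. The deposited fold changes, p-values and pathway enrichments of those tables, which compare genotypes, were not used, nor were 72 further columns of values per sample.

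Whole reads were recovered from FPKM, gene length and the library size shared with the counts: 100% of the values came out whole within 0.01 read, which gives the depth (20946091 to 30322171 reads on genes). At this depth a gene near the minimum of 0.5 FPKM rests on few reads if it is short. Every pair of replicates differed by more than sampling noise (chi-square per gene at least 12.1). NCD liver pairs with mouse 182 had 107 to 123 and the other NCD liver pairs 12.1 to 20.7. NCD visWAT pairs with mouse 182 or 183 had 207 to 959, and the pair of mice 165 and 180 had 37.0. Each gene identifier was tested by itself, and 77 symbols were shared by several identifiers.

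limma 3.58.1 (R 4.3.3, empirical Bayes with trend, two-sided) was fitted to log2(FPKM + 1), a scale that understates changes of low genes. Diet was tested within each tissue (5 against 4 mice) over genes with a mean of at least 0.5 FPKM in the 9 libraries, 14161 in visWAT and 13330 in liver. The difference of the changes was tested over the 11524 genes in both, with the mouse as block, since both tissues came from the same animals. Deviations of the 2 tissues of a mouse from their group means correlated at -0.078 to 0.092. Called means a Benjamini-Hochberg adjusted p under 0.05. Errors are standard errors of the fit, and p-values measure the spread between mice. Whether the sequenced mice were 1 cohort is not given in the sources used here. Mouse numbers were 154 to 164 on HFD and 165 to 183 on NCD, so a difference that follows the numbering cannot be told apart from diet. A two-sided exact permutation test of the per-mouse difference can give no p under 0.0159 here, and since genes were named for diets that did not overlap it is not used as support. The code was tested on simulated data.

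Named were, per class and direction, the 4 genes with the largest size (the smaller of both changes for genes called in both tissues, the difference for the others) with at least 1 FPKM in a diet group of each tissue where the gene was called and no overlap between diets there. From each list, up to 3 members with the largest called difference and up to 2 that moved together were taken. Predicted genes and pseudogenes were counted and not named, and 3 genes that the rule takes from the lists are not reported here. Groups, gene lists (32 lists, 648 of 650 symbols matched), tests and alternatives were chosen with earlier results of these data known. Promoters are RefSeq sequences of GRCm38.p6. Alternatives were a pseudocount of 0.1, a minimum of 1 FPKM or none or in either tissue, the TPM scale, centring on the median gene, edgeR 4.0.16 and DESeq2 1.42.0 on the recovered reads, a log2 size of at least 1, each mouse left out, and other block settings.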

Additional observations from a re-analysis of the deposited data

Results flagged for a closer look

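For 4191 genes the change on HFD differed between visWAT and liver by a test of the difference itself (limma with the mouse as block, adjusted p under 0.05). The 24 genes named from the classes with a called difference are given here with it, on the log2 scale and in the order visWAT minus liver. Moving apart, visWAT rose against liver for *Pltp* by 5.32, *Gdf15* by 3.7, *Neurl2* by 2.70 and *Gadd45b* by 3.17. The reverse held for *Orm3* at -7.08, *Cfd* at -7.56, *Cidea* at -5.02 and *Thrsp* at -4.28. Changes in visWAT only gave 6.75 for *Gpnmb*, 5.77 for *Spp1*, 5.63 for *Atp6v0d2*, 4.88 for *Ubd*, -5.02 for *Cyp2e1*, -3.45 for *Actg2*, -3.08 for *Cyp2f2* and -2.92 for *Acaca*. Changes in liver only gave -3.04 for *Plin4*, -2.56 for *Cidec*, -2.51 for *Gbp11*, -2.47 for *Tpm2*, 5.48 for *Fabp5*, 2.68 for *Sqle*, 2.59 for *Lpl* and 2.53 for *Mvd*. Some of these labels rested on 1 mouse. Without mouse 182, *Gpnmb* missed the minimum in liver, *Atp6v0d2* and *Ubd* moved together, and *Cyp2e1* and *Fabp5* moved apart. Without mouse 183, *Tpm2* moved apart, *Lpl* moved together, and the difference for *Actg2* was not called.

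A single mouse lay far from the rest of its diet group, by Dixon's criterion on the per-mouse difference visWAT minus liver of log2(FPKM + 1), in 22 of 210 groups (105 named genes on 2 diets). For independent values, chance gives about 1 in 20 groups. The genes here share the same mice and were picked for their size, so that rate is no test of the count. Mouse 182 accounted for 10 of the 22. It was highest for *Pltp* at 0.24 (others -2.31 to -2.01), for *Sqle* at -1.17 (others -2.92 to -2.63) and for *Ndufs7* at 0.24 (others -0.25 to -0.19). It was lowest for *Atp6v0d2* at -2.25 (others -0.34 to 0.01), for *Lpl* at 3.88 (others 5.70 to 5.85), for *Ctss* at -1.13 (others 0.44 to 0.47), for *Col6a3* at -0.18 (others 1.67 to 1.75), for *Hp* at -2.49 (others -0.71 to -0.47), for *Cdc20* at -2.25 (others 0.24 to 0.74) and for *Mt1* at -0.55 (others 3.12 to 3.7). Mouse 183 was highest for *Cdk18* at -0.41 (others -2.53 to -2.27), for *Tpm2* at 4.59 (others 1.55 to 2.05) and for *Actg2* at 6.77 (others 2.16 to 2.79).

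The other 9 were spread over 6 mice. Mouse 165 was highest for *Adap2* at 0.23 (others -0.80 to -0.63) and for *Ccl2* at 1.30 (others 0.65 to 0.71). On HFD, mouse 155 was lowest for *Lpl* at 7.42 (others 7.94 to 8.02), mouse 154 highest for *Fn1* at -1.37 (others -2.27 to -2.16) and mouse 162 highest for *Elovl6* at -3.62 (others -4.69 to -4.38). Mouse 161 was highest for *Nkg7* at 2.09 (others 1.0 to 1.31) and for *Ccnb2* at 2.40 (others 1.78 to 1.91). Mouse 164 was lowest for *Hmgcs1* at 0.53 (others 1.03 to 1.17) and highest for *Gclc* at -3.53 (others -4.06 to -3.91).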

How the results depend on the processing

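Counts of calls moved by over 1.5 times as follows. Without a minimum on FPKM, 387 genes moved apart and 3308 changed in visWAT only. On the TPM scale the difference was called lower in visWAT for 324 genes, 379 moved apart and 520 changed in liver only. DESeq2 on the recovered reads gave 711 genes that moved together. With a log2 size of at least 1 required, the difference was called higher in visWAT for 755 and lower for 404 genes, 18 moved together, 25 apart, 644 changed in visWAT only and 129 in liver only, and 1179 genes were called in visWAT and 384 in liver. Leaving out each mouse in turn, the genes that moved apart ranged from 359 (without mouse 161) to 722 (without mouse 182), with 395 without mouse 180, and those that moved together from 287 (without mouse 161) to 674 (without mouse 182). The ranges were 707 to 990 for liver only, 1715 to 2610 for visWAT only, 4244 to 6287 for calls in visWAT, 2661 to 3773 for calls in liver, and 1809 to 2536 higher and 1465 to 2136 lower for the difference. No gene with a called difference turned its sign under an alternative that called it too, and 3805 of the 4191 called genes were called without mouse 182, 3810 without mouse 183 and 3652 without both. The 11524 genes tested leave out 2637 that reached the minimum in visWAT alone and 1806 in liver alone, and testing genes that reached it in either tissue gave 5660 calls, 4114 of them shared.

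Both tissues came from the same mice. Without the replicate block the difference was called higher for 2452 and lower for 2140 genes (4592 in all, 4004 of them shared), and with the replicate block as a random effect for 2429 and 2111. Leaving out the block changed no call of the 24 genes named with a difference. With edgeR the difference was called higher for 2029 and lower for 2128 genes. Among the 32 genes named from the classes, no alternative reversed a value. The visWAT fall of *Acss2* was not called without a minimum (limma adjusted p = 0.0851), on the TPM scale (0.0923) or when any one of mice 154, 155, 161, 162, 164 and 180 was left out (0.0668 to 0.0878). That of *Scd1* was not called without a minimum (0.193). The difference for *Actg2* was not called with a pseudocount of 0.1, without a minimum, with edgeR, or without mouse 154, 164 or 183 (adjusted p = 0.0503 to 0.0616). Of all 105 genes named, 90 kept their class without mouse 182 and 90 without mouse 183. Of the 32 named from the classes, 27 and 29 did, and those that did not were all named for a change in 1 tissue only. The list counts under these settings and without both mice were added after the data had been seen. Depth limits the low genes, since the minimum of 0.5 FPKM lets in short genes with few reads.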

Other observations

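Genes that reached the minimum in one tissue alone have no change in the other to compare and were left out of the classes. Of 2637 such genes of visWAT, 846 rose and 335 fell there, and of 1806 such genes of liver, 373 rose and 176 fell. Over the 11524 genes in both tissues, the changes in visWAT and in liver had a Pearson correlation of -0.048 across genes, which share the same 9 mice and are not independent.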
